A study of Arabidopsis thaliana with 8 samples.

Results

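The members described here are the Arabidopsis thaliana probe sets whose platform gene symbol is UGT or CYP followed by a digit and which name 1 gene, with UGT78D1 and UGT78D2 left out. The rule used gene symbols and no measured value. It found 71 members, each of a different gene, among 13513 probe sets that name 1 gene and 22746 gene probe sets in all: 45 UGT and 26 CYP members. All 71 were matched by locus in TAIR10.1. The CYP symbol is shared by an unrelated family: CYP71 (AT3G44600) and CYP59 (AT1G53720) are cyclophilins, which fold proteins, so 24 of the 26 CYP members are cytochrome P450 genes. The 2 cyclophilins are given apart.

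RNA from whole plants was hybridised to 8 Affymetrix ATH1 arrays, with 1 array for each of 4 lines at 1 and at 12.5 mM CaCl2. The lines are a lab calcicole and a lab calcifuge, and 2 wild ecotypes, called here the high soil pH and the low soil pH ecotype after the soil their labels name. A calcicole is a plant of lime-rich soil and a calcifuge one that avoids it. All plants were grown in sterile sand in a growth room at 22 °C and 55% humidity with 10 hours of light a day and 0.5-strength Long Ashton nutrient solution. The labels give neither the accession behind each line nor the age or number of plants per array, and each line stands for itself alone. Where signals of a line are given in pairs, the 1 mM array comes before the 12.5 mM array. Values are signal intensities, linear and scaled by the authors, and the arrays' medians lay between 42.4 and 47.8. Differences are on the scale of log2(signal + 2.51), which understates changes of dim probe sets, and the value after ± is its standard error in limma. The number of arrays limits the precision.

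UGT enzymes move a sugar, most often glucose, from a UDP-sugar onto a small molecule. In Arabidopsis their acceptors include hormones, lignin precursors, flavonoids, sterols and the thiohydroximates of glucosinolate synthesis, and the sugar usually makes the molecule more soluble and alters its activity. Cytochrome P450 enzymes insert oxygen from O2 with electrons from a reductase, and plants use them to build phenylpropanoids, hormones, glucosinolates and camalexin, the indole defence compound of this species. Both are large families with many tandem gene copies.

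Not every family member is named by symbol on this array, and the named ones are unevenly spread over known functions. Of 39 UGT symbols with a role in lists written from general knowledge, 23 are members, while of 88 such CYP symbols only 3 are: CYP71B6, CYP78A9 and CYP79A2. The P450 members are mostly of the CYP71B subfamily, whose substrates are largely not assigned. None of the 22 P450 genes listed under other names was named in the platform annotation, nor was a gene of the electron supply to P450 enzymes. The annotation names no gene for 8730 probe sets, so a gene that is not named may still have a probe set.

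A mean signal of 20 or more was measured for 24 of the 45 UGT and 13 of the 26 CYP members, 12 of them P450 genes and the other the cyclophilin CYP71. The tests were made on the 13647 probe sets left after the 40% with the lowest mean log2 value were set aside, and 18 UGT and 11 CYP members were among them, all with a mean signal of 20 or more. The UGT members that reached 20 but were not tested are UGT73B1, UGT73B5, UGT76B1, UGT76C2, UGT85A3 and UGT85A4, and the P450 members are CYP71B29 and CYP84A4. The 2 criteria cross because the filter ranks mean log2 values: UGT76D1 was tested at a mean signal of 29.6, whereas UGT85A4, with 33.6, was not, since its signal ran from 69.6 down to 1.52. At the dim end, 8 UGT and 6 P450 members stayed under a signal of 10 on all 8 arrays. CYP71B21 was never above 0.63 and CYP79A2, which starts benzyl glucosinolate synthesis from phenylalanine, never above 2.14.

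**Figure D1:**
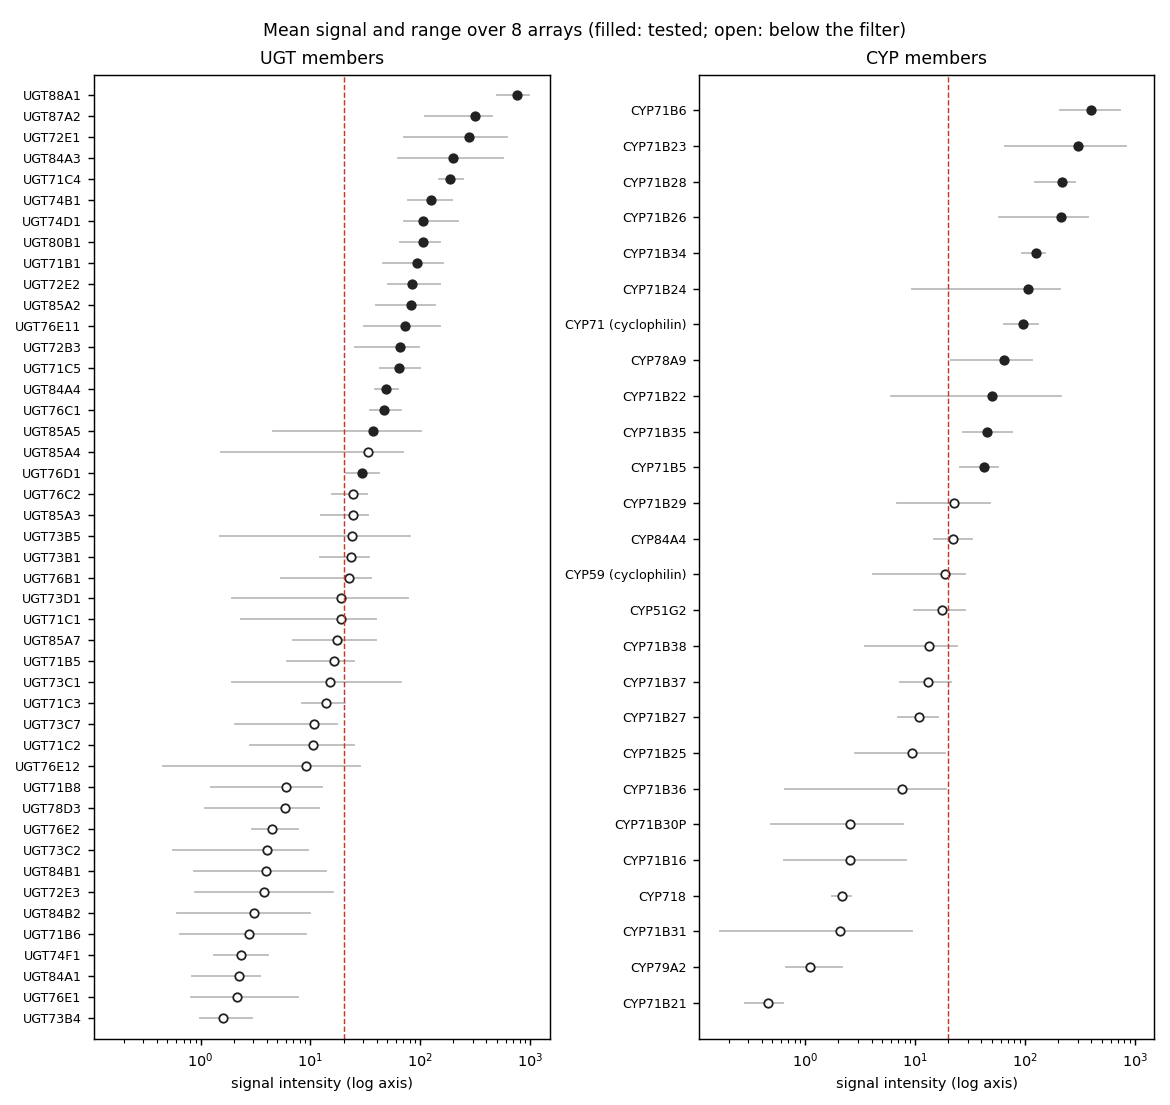
Mean signal intensity (points, log axis) and the range over 8 arrays (grey lines) of the 45 UGT members (left) and 26 CYP members (right). Filled points are the 18 UGT and 11 CYP members tested, open points those below the filter, and the dashed line is a signal of 20. Signals of different probe sets are not comparable as transcript levels.

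The response to CaCl2 asks what a supply of 12.5 mM against 1 mM does to these genes across the 4 lines. None of the 18 UGT and none of the 11 CYP members passed an adjusted p of 0.05, and only 0.0147% of all probe sets tested did. With the unadjusted p, 4 UGT and 2 CYP members were under 0.05, against 13.0% of all probe sets. UGT84A3 forms glucose esters of hydroxycinnamic acids such as sinapate. Its signal at 1 and 12.5 mM was 251 then 569 in the lab calcicole, 63.2 then 116 in the lab calcifuge, 88.3 then 117 in the high soil pH ecotype, and 116 then 270.0 in the low soil pH ecotype. The signal was thus higher at 12.5 mM in all 4 lines, by 0.90 ± 0.18 on the log2 scale (adjusted p 0.115). The arrays of the doses still overlapped.

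UGT85A5, of the UGT85 family, had signals of 41.9 then 102 in the lab calcicole, 15.5 then 47.1 in the lab calcifuge, 26.3 then 34.9 in the high soil pH ecotype and 4.59 then 22.4 in the low soil pH ecotype. The difference was 1.22 ± 0.24 (adjusted p 0.108), and the low soil pH ecotype was the lowest of the 4 at each dose. UGT76E11, which is known to glycosylate flavonoids, went from 40.6 to 119.7, from 30.5 to 37.8, from 62.5 to 84.1 and from 52.9 to 153 in the same order of lines. Here the lab calcicole and the low soil pH ecotype had the larger changes, and the difference over lines was 0.92 ± 0.25 (adjusted p 0.202). UGT71C4 was also higher at 12.5 mM in all 4 lines, by 0.31 ± 0.17 (adjusted p 0.491). In all, 4 of the 18 UGT members tested had a higher and 0 a lower signal at 12.5 mM in every line, against 10.6% and 10.5% of all probe sets tested.

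Among the P450 members, 2 were higher and 1 was lower at 12.5 mM in all 4 lines. For CYP71B23 the difference was -1.19 ± 0.25 (adjusted p 0.130). Its signals at 1 and 12.5 mM were 829.9 then 474 in the lab calcicole, 259 then 172 in the lab calcifuge, 290.5 then 64.9 in the high soil pH ecotype, and 221 then 91.3 in the low soil pH ecotype. The drop was steepest in the high soil pH ecotype and the lab calcicole kept the highest signal at either dose. CYP71B26 differed by 0.91 ± 0.24 (adjusted p 0.194), with signals of 152 and 265, 89.1 and 230.3, 356 and 375, and 57.9 then 159 in the same order of lines. In the high soil pH ecotype, where it was highest, its signal hardly moved. CYP71B34 had a small difference of 0.33 ± 0.15 (adjusted p 0.402), but all 4 arrays at 12.5 mM, from 133 to 150.2, lay above all 4 at 1 mM, from 93.8 to 129. It was the only member tested whose doses did not overlap, and 1.34% of all probe sets were separated in that direction.

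CYP71B29 was below the filter, and its signal was lower at 12.5 mM in every line: 26.3 then 10.3 in the lab calcicole, 48.0 then 25.7 in the lab calcifuge, 28.7 then 7.37 in the high soil pH ecotype, and 26.0 then 6.82 in the low soil pH ecotype. Without the filter the difference was -1.32 ± 0.20 (adjusted p 0.354). The cyclophilin CYP71 showed little of any change with dose (-0.09 ± 0.15, adjusted p 0.844).

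The median difference between doses was 0.17 over the 18 UGT members tested and 0.17 over the 10 P450 members, beside 0.01 over all probe sets tested. It was not alike in each line. Over the UGT members the median change was 0.17 for the calcicole and 0.30 for the calcifuge of the lab, -0.23 in the high soil pH ecotype and 0.48 in the low soil pH ecotype. Over the P450 members it was -0.01, 0.26, 0.03 and 0.52 in that order, while the medians of all probe sets lay between -0.03 and 0.06. These medians describe the members that passed the filter and are no test.

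**Figure D2:**
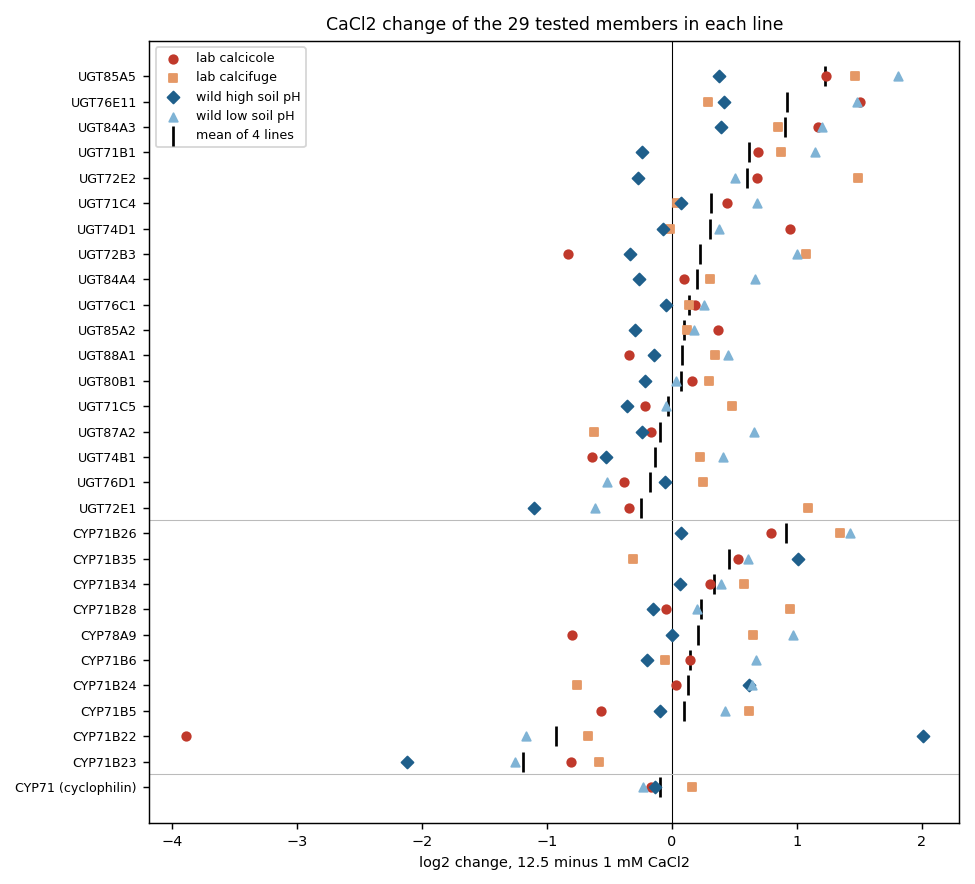
Log2 change from 1 to 12.5 mM CaCl2 (x axis) of the 29 tested members in each of the 4 lines (coloured points), with the mean over lines (black bars). UGT members are at the top, P450 members below them and the cyclophilin CYP71 at the bottom. UGT85A5, UGT76E11, UGT84A3, UGT71C4, CYP71B26 and CYP71B34 lie to the right of 0 in all 4 lines and CYP71B23 to the left.

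Set against each other, the lab calcicole and the lab calcifuge differed in 1 UGT and 1 P450 member, both higher in the calcicole. This is 1 of 18 UGT and 1 of 11 CYP members, where 4.53% of all probe sets tested passed, and 1.53% were higher in the calcicole. UGT84A3 was 4.32-fold higher in the calcicole (log2 2.11 ± 0.25, adjusted p 0.00962). As its signals above show, both calcicole arrays, 251 and 569, lay above both calcifuge arrays, 63.2 and 116, at either dose. The call was lost without the calcicole array at 12.5 mM (adjusted p 0.0598) and without the filter (adjusted p 0.0547).

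CYP71B6, which turns indole-3-acetonitrile into indole aldehyde and acid products, was 2.37-fold higher in the calcicole (log2 1.25 ± 0.26, adjusted p 0.0416). It read 655 then 726 in the calcicole against 295 then 283 in the calcifuge, with 354 then 308 in the high soil pH ecotype and 208 then 333 in the low soil pH ecotype. Both calcicole arrays stood above the other 6, which overlapped among lines. Leaving out any of the 4 lab arrays raised the adjusted p to between 0.106 and 0.181, and leaving out either high soil pH ecotype array raised it to 0.0526. It was also lost when probe sets were chosen by a mean signal of 20 or more (adjusted p 0.0583) and without the filter (adjusted p 0.132).

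Several further members had differences between the lab lines of similar size that did not pass. CYP78A9, a regulator of fruit and seed size, differed by 1.60 ± 0.40 (adjusted p 0.0670), with 116 then 65.6 in the calcicole against 21.1 then 34.5 in the calcifuge. Both calcifuge arrays were the lowest of the 8, and the difference ranged from 0.94 to 2.27 over the alternatives. CYP71B23 differed by 1.56 ± 0.36 (adjusted p 0.0562) and passed under median centring (adjusted p 0.0496), quantile normalization (0.0415), a pseudocount of 16 (0.0328), the intensity trend with robust estimation (0.0426) and without either high soil pH ecotype array (0.0303), while its adjusted p reached 0.251 at most and its difference ran from 1.15 to 1.96 over the alternatives. UGT74D1, which glucosylates indole auxins, differed by 1.14 ± 0.28 (adjusted p 0.0670). Its signal was 114 then 222 in the calcicole and 71.3 then 70.5 in the calcifuge, beside 103 then 97.8 in the high soil pH ecotype and 73.3 then 95.9 in the low soil pH ecotype. The UGT74D1 difference was 0.72 without the lab calcicole array at 12.5 mM (adjusted p 0.300) and passed with the intensity trend and robust estimation (0.0490). UGT72E1 differed by 0.89, and the value depended on the calcifuge arrays: it was 0.0014 without the one at 1 mM, and 1.78 without the one at 12.5 mM, where it passed (adjusted p 0.0483). Other UGT differences, with their range over the alternatives, were 1.19 for UGT85A5 (0.89 to 1.35), 0.99 for UGT76E11 (0.57 to 1.42), 0.74 for UGT71B1 (0.57 to 0.91) and 0.61 for UGT87A2 (0.25 to 0.96). Of these UGT85A5 passed without either high soil pH ecotype array (adjusted p 0.04999). In the opposite direction UGT74B1, which adds the glucose of the glucosinolate core, differed by -0.87 ± 0.30 (adjusted p 0.145, range -1.21 to -0.53), with 122 then 77.3 in the calcicole and 166 then 194 in the calcifuge.

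The median lab difference was 0.21 over the UGT members tested and 0.53 over the P450 members, against 0.01 over all probe sets. Among UGT members 11 were higher and 7 lower in the calcicole, and among P450 members 9 were higher and 1 lower. Over all 13647 probe sets tested, 7030 were higher and 6617 lower. These counts are no test. PYK10, a root-abundant beta-glucosidase and the only tested one of 2 named root markers out of 9 listed, was lower in the calcicole by -2.14 (adjusted p 0.0350). The summed signal of the 2 root markers was 70.8 then 225 in the calcicole and 280.3 then 842 in the calcifuge. Most of it was PYK10, with 49.2 then 203 in the calcicole and 247 then 830 in the calcifuge. The other marker, EXPA7, was below the filter and went the other way at 12.5 mM. It read 21.6 then 21.6 in the calcicole and 33.5 then 12.1 in the calcifuge. Whole plants were sampled, so fewer cells of a type and less RNA per cell cannot be told apart, and the part of organ proportions in these differences was not tested.

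The wild lines differed in 1 P450 member and in no UGT member, and 0.33% of all probe sets tested passed, 0.205% with the lower signal in the high soil pH ecotype. CYP71B24 was 7.52-fold lower in the high than in the low soil pH ecotype (log2 -2.91 ± 0.35, adjusted p 0.0236). It read 9.29 then 15.6 in the high soil pH ecotype and 85.5 then 135 in the low soil pH ecotype, with 202 then 207 in the lab calcicole and 123 then 71.3 in the lab calcifuge. The high soil pH line was the lowest of the 4 lines at both doses by a wide margin. The call was lost without any 1 of the 4 wild arrays (adjusted p 0.107 to 0.188), without either lab calcicole array (0.0690) and without the filter (0.139), while the difference stayed between -3.25 and -2.13 under all alternatives.

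By unadjusted p, 5 of the 18 UGT members were under 0.05 in the wild comparison, against 9.0% of all probe sets. UGT87A2, known to affect flowering time, differed by 1.53 ± 0.31 (adjusted p 0.131). Its signal was 446 then 378 in the high soil pH ecotype and 111 then 177 in the low soil pH ecotype, where it was lowest of the 4 lines, with 452 then 402 in the lab calcicole and 347 then 224 in the lab calcifuge. UGT85A5 differed by 1.30 ± 0.33 (adjusted p 0.224, range 0.72 to 1.86 over the alternatives) and UGT84A3, in the opposite direction to the lab lines, by -0.79 ± 0.25 (adjusted p 0.370, range -1.13 to -0.45). CYP71B26 differed by 1.90 ± 0.34 (adjusted p 0.0976), and its 2 arrays of the high soil pH ecotype, 356 and 375, were above all the other 6. Of the remaining UGT members named by the rule, UGT88A1 differed by 0.63 (0.38 to 0.88), UGT85A2 by 0.61 (0.35 to 0.87), UGT74B1 by 0.52 (0.16 to 0.89) and UGT80B1 by -0.43 (-0.62 to -0.25). The value of UGT72E1, -0.31, turned to 0.26 without the high soil pH ecotype array at 12.5 mM.

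The 2 lab lines together differed from the 2 wild lines in 5 of 18 UGT members and 2 of 11 CYP members, all 7 higher in the lab lines and 0 lower. Over all probe sets tested 15.9% passed, 8.18% higher and 7.72% lower in the lab lines. UGT72E1, which glucosylates coniferyl and sinapyl aldehydes, was 3.41-fold higher (log2 1.77 ± 0.33, adjusted p 0.0168). It read 621 then 489 in the lab calcicole and 203 then 433 in the lab calcifuge, against 154 then 70.4 in the high soil pH ecotype and 162 then 105 in the low soil pH ecotype. All 4 lab arrays were above all 4 wild arrays, though the lab calcifuge at 1 mM stood close to the wild arrays.

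UGT85A2 was 2.00-fold higher in the lab lines (log2 1.00 ± 0.16, adjusted p 0.0118), with signals of 76.1 then 99.0 in the lab calcicole, 126 then 137 in the lab calcifuge, 72.6 then 58.6 in the high soil pH ecotype and 39.1 then 44.6 in the low soil pH ecotype. The lab arrays did not overlap the wild ones, with the lab calcicole at 1 mM and the high soil pH ecotype at 1 mM nearly touching. UGT71C5, which glucosylates abscisic acid, was 1.60-fold higher (log2 0.68 ± 0.18, adjusted p 0.0424), from 67.8 to 99.4 on the lab arrays and from 43.3 to 59.3 on the wild arrays. UGT80B1, a sterol glucosyltransferase, was 1.51-fold higher (log2 0.60 ± 0.15, adjusted p 0.0384), from 100.5 to 151 on the lab arrays and from 65.6 to 97.5 on the wild arrays. The 4 UGT members just given are those whose lab and wild arrays did not overlap, and 8.25% of all probe sets were separated in that direction. UGT85A5 passed as well (log2 1.11 ± 0.24, adjusted p 0.0241), but its arrays overlapped, since the lab calcifuge at 1 mM, 15.5, lay below both arrays of the high soil pH ecotype.

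CYP71B24 was 3.52-fold higher in the lab lines (log2 1.82 ± 0.25, adjusted p 0.00773). Its arrays overlapped: at 12.5 mM the low soil pH ecotype, 135, exceeded the lab calcifuge, 71.3. CYP71B23 was 2.57-fold higher (log2 1.36 ± 0.25, adjusted p 0.0173), also with overlap between the lab calcifuge and the wild lines. CYP71B6 differed by 0.59 ± 0.18 (adjusted p 0.0643) and passed with a pseudocount of 16 (0.0465) and with the intensity trend (0.0475). The cyclophilin CYP71 did not overlap between lab and wild arrays but did not pass either (log2 0.48 ± 0.15, adjusted p 0.0623). On the lower side, the named members, none past the threshold, were UGT76E11 at -0.70 (adjusted p 0.0983, range -0.91 to -0.49), UGT72B3 at -0.61 (-0.96 to -0.26), CYP78A9 at -0.46 (-0.79 to -0.12), CYP71B28 at -0.29 (-0.52 to -0.05) and CYP71B5 at -0.22. The sign of CYP71B5 turned without the lab calcicole array at 12.5 mM (0.0054).

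Of these 7 calls only that of CYP71B24 held under every alternative (adjusted p 0.00463 to 0.0448). The alternatives for this comparison left out single arrays but never a whole line, so dependence of the calls on a single line was not tested. The CYP71B24 difference did not hold for every pair of lines. The lab calcifuge was above the low soil pH ecotype at 1 mM but below it at 12.5 mM, while the high soil pH ecotype was far below both lab lines. The wild lines themselves differed in CYP71B24 by -2.91 ± 0.35. Between the lab calcifuge and the low soil pH ecotype, 0 of 10 P450 members passed (2.46% of all probe sets). The highest P450 estimate there was 0.56, for a member other than CYP71B24. All 5 UGT calls were lost without the filter and without the lab calcicole array at 12.5 mM or the high soil pH ecotype array at 12.5 mM, which left 0 UGT calls in each of the last 2 cases. Of 9 leaf markers 5 were named and tested, and PRK and SBPASE, enzymes of the Calvin cycle, were lower in the lab lines by -1.0 and -1.16. The summed leaf marker signal was 10885 to 17151 on the lab arrays and 18945 to 20752 on the wild arrays, and its part in the UGT and P450 differences was not tested.

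**Figure D3:**
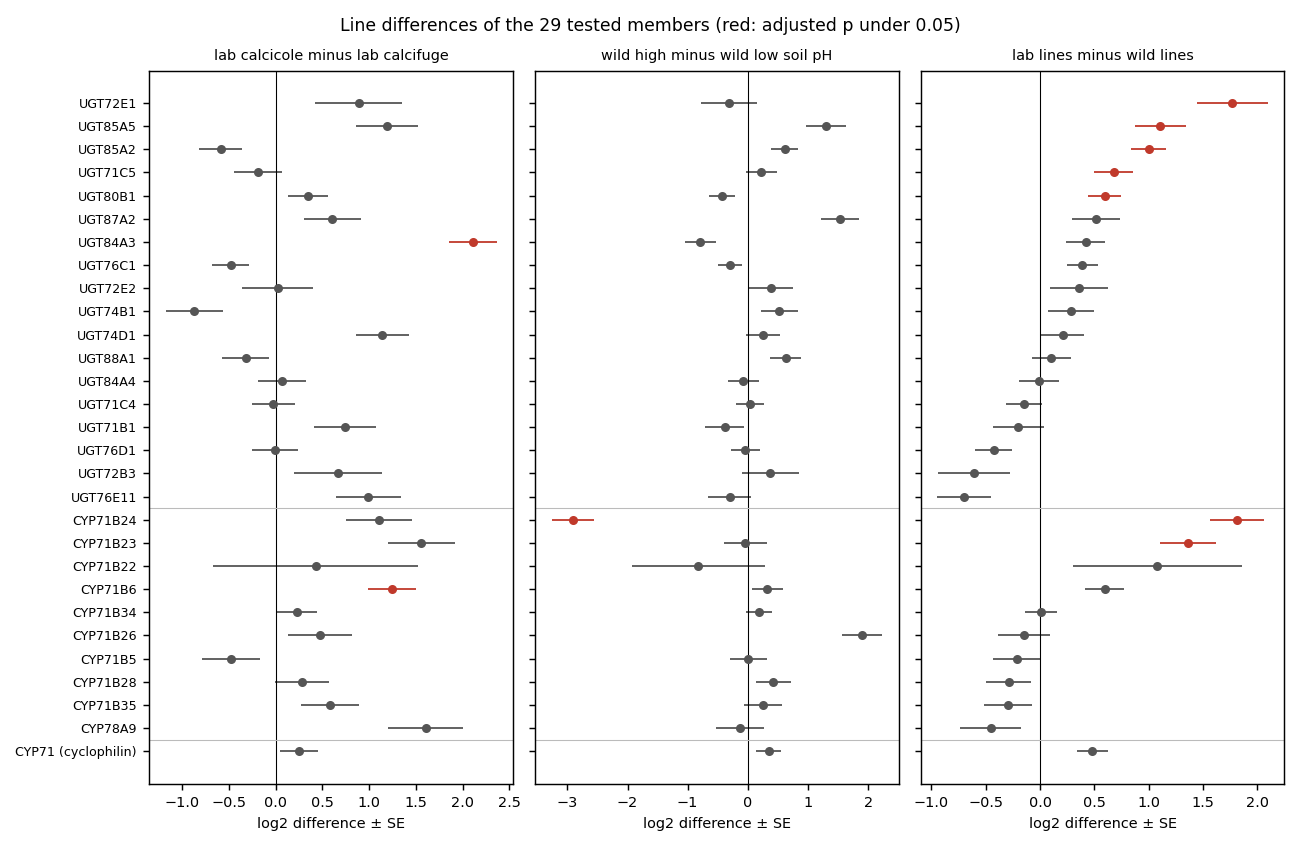
Log2 differences (points) and standard errors (bars) of the 29 tested members between the lab calcicole and calcifuge (left), the wild high and low soil pH lines (middle) and the lab and wild lines (right). Red points passed an adjusted p of 0.05: UGT84A3 and CYP71B6 on the left, CYP71B24 in the middle, and 5 UGT and 2 P450 members on the right, all higher in the lab lines.

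UGT85A4, below the filter, had an even descent over the lines. Its signals were 69.6 then 48.8 in the lab calcicole, 47.8 then 45.5 in the lab calcifuge, 31.5 then 16 in the high soil pH ecotype and 8.45 then 1.52 in the low soil pH ecotype. The 4 lab arrays lay above the 4 wild arrays, and without the filter the lab lines were higher by 2.08 ± 0.25 (adjusted p 0.0316), the 1 UGT member among 2.02% of all 22746 probe sets to pass in that fit. UGT73B5, which takes part in the response to bacterial infection, read 62.8 then 80.1 in the lab calcicole and no more than 20.4 on the other 6 arrays. Without the filter its lab difference was 2.47 ± 0.66 (adjusted p 0.174). UGT73C1, also below the filter, was high on 1 array only, at 66.5 in the lab calcicole at 12.5 mM and at most 21.0 elsewhere.

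Whether the line difference itself differs between the lab and the wild pair was tested directly, and 1.16% of all probe sets passed, 0.374% with a lab difference minus wild difference above 0. UGT84A3 and CYP71B24 passed and are the only members that did. Both calls were lost without the filter (adjusted p 0.104), that of UGT84A3 also without 7 of the 8 arrays in turn (up to 0.0899) and that of CYP71B24 without 6 of the 8 (up to 0.0899). For UGT84A3 the lab difference exceeded the wild one by 2.90 ± 0.36 (adjusted p 0.0199): the line of the calcicole class was higher in the lab pair and lower in the wild pair, at both doses. For CYP71B24 the gap was 4.02 ± 0.50 (adjusted p 0.0199). The high soil pH ecotype was far below the low (-2.91 ± 0.35), and this difference passed. The lab calcicole was above the lab calcifuge by 1.11 ± 0.35, which did not pass (adjusted p 0.116). For UGT84A3 the wild difference, -0.79 ± 0.25, did not pass. UGT85A2 and UGT74B1 had values below 0 that did not pass, -1.20 ± 0.32 (adjusted p 0.144) and -1.39 ± 0.43 (adjusted p 0.188).

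**Figure D4:**
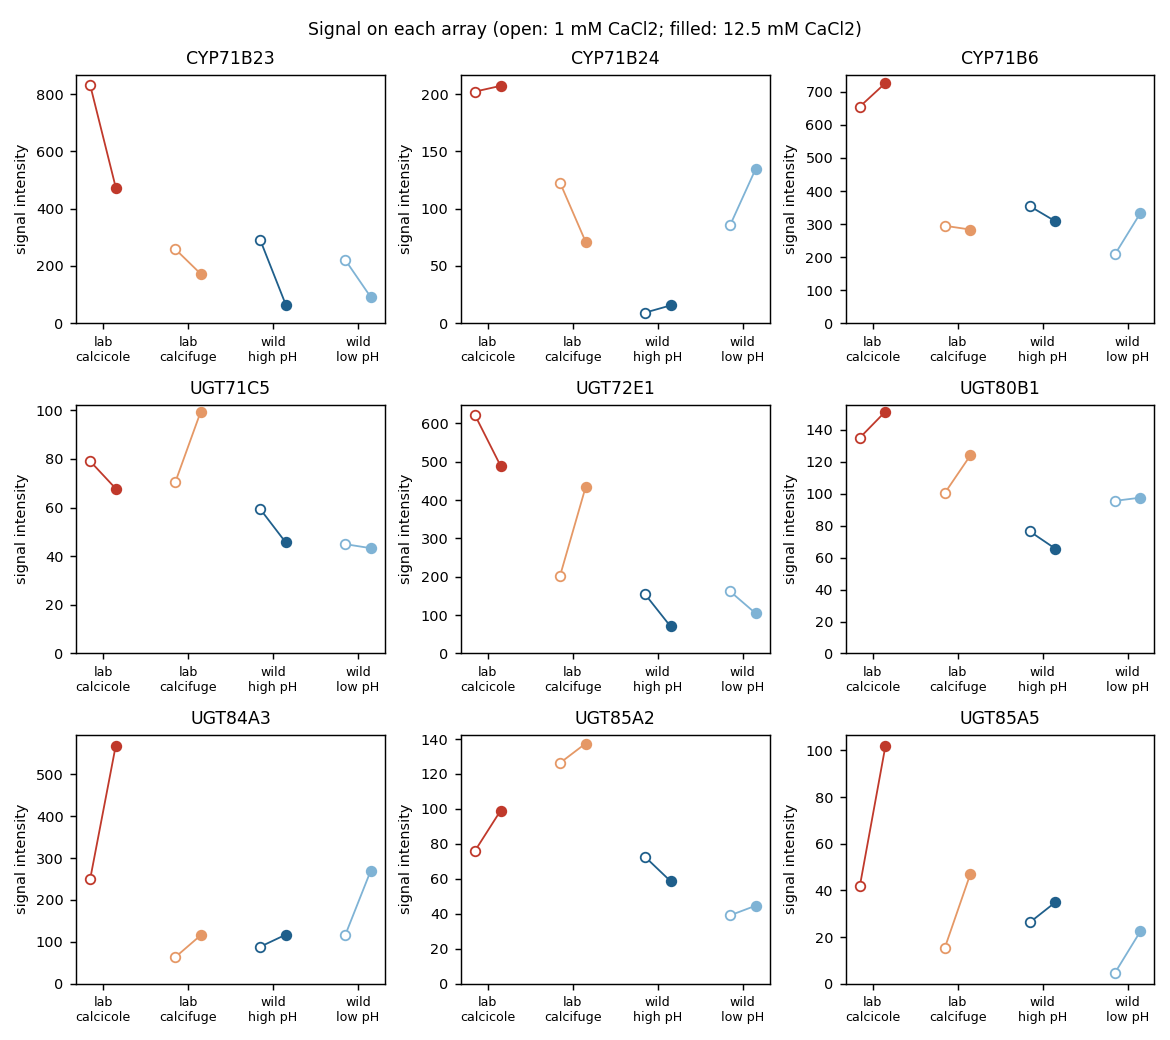
Signal intensity (y axis, from 0) of the 9 members that passed in a line comparison, on each of the 8 arrays. Open points are 1 mM and filled points 12.5 mM CaCl2, and each pair joined by a line is 1 plant line. UGT84A3 is highest in the lab calcicole, CYP71B24 lowest in the high soil pH ecotype, and UGT72E1 lower in both wild lines than in both lab lines.

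The CaCl2 response was also compared between the calcicole-class lines (the lab calcicole and the high soil pH ecotype) and the calcifuge-class lines, and between lab and wild lines. No member passed in either, and 0.0% of all probe sets did. By unadjusted p, 2 UGT and 3 CYP members were under 0.05 for the class comparison (5.9% of all probe sets) and 1 UGT and 2 CYP members for the lab and wild comparison (5.03%). In the class comparison the estimate was negative, meaning a smaller or more negative change in the calcicole class, for 25 of the 29 members tested, as it was for 7404 of all 13647. The median was -0.33 over the members and -0.04 over all probe sets.

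UGT72B3 had the smallest p among UGT members there (-1.62 ± 0.31, adjusted p 0.796). Its signal went from 83.5 to 45.8 in the lab calcicole and from 97.5 to 76.7 in the high soil pH ecotype, but from 25.6 to 56.6 in the lab calcifuge and from 46.0 to 94.8 in the low soil pH ecotype. The direction was the same within each class and opposite between them. CYP78A9 led the P450 members (-1.21 ± 0.37, adjusted p 0.807): it went from 116 to 65.6 in the lab calcicole and stayed at 65.1 then 65.2 in the high soil pH ecotype, while going from 21.1 to 34.5 and from 50.3 to 101 in the calcifuge class. The other members named by smallest p were UGT74B1 (-0.90), UGT88A1 (-0.64), CYP71B26 (-0.95) and CYP71B5 (-0.86).

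Between lab and wild lines, UGT72E1 had a response difference of 1.23 ± 0.51 and UGT72E2, its coniferyl and sinapyl alcohol glucosylating relative, of 0.97 ± 0.43 (adjusted p 0.988 and 0.990). UGT72E2 read 70.9 then 115 in the lab calcicole, 52.2 then 151 in the lab calcifuge, 87.6 then 72.0 in the high soil pH ecotype and 50.4 then 72.6 in the low soil pH ecotype. CYP71B22 gave the widest estimate, -2.70 ± 1.29 (adjusted p 0.993), and its change with dose ran in opposite directions in the wild lines. It read 210.2 then 11.9 in the lab calcicole, 49.4 then 30.1 in the lab calcifuge, 5.96 then 31.5 in the high soil pH ecotype and 42.5 then 17.5 in the low soil pH ecotype.

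Line accounted for more of the spread than dose in both families. The median share of the sum of squares was 70.9% for line, 7.40% for dose and 16.8% for the rest over the UGT members tested, and 55.2%, 12.4% and 20.4% over the P450 members. Over all probe sets it was 64.4%, 7.19% and 20.2%, with 3, 1 and 3 of the 7 degrees of freedom. Among the members tested, both lab calcicole arrays were above the other 6 for UGT72E1, UGT74D1, UGT80B1, CYP71B6, CYP71B23, CYP71B24 and the cyclophilin CYP71 (11.7% of all probe sets). They were below the other 6 for no member tested (11.1%). Both lab calcifuge arrays were above the other 6 for UGT74B1, UGT85A2 and UGT76C1, a cytokinin glucosyltransferase (7.4%). They were below the other 6 for UGT74D1, UGT76E11, CYP71B35 and CYP78A9 (7.42%). The high soil pH ecotype was highest for CYP71B26 and CYP71B28 (5.91%) and lowest for UGT76C1, UGT80B1 and CYP71B24 (5.44%). The low soil pH ecotype was highest for none of the members tested (3.48%) and lowest for UGT71C5, UGT85A2, UGT87A2 and the cyclophilin CYP71 (5.6%).

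By role, the phenylpropanoid and lignin group held 6 UGT members, of which UGT72E1, UGT72E2, UGT84A3 and UGT84A4 were tested and UGT72E3 and UGT84A1 were not. UGT84A3 passed between the lab lines, as 1 of 4 against 4.53% of all probe sets. UGT72E1 passed between lab and wild lines, as 1 of 4 against 15.9%, and 0 of 4 passed with CaCl2 against 0.0147%. Groups of this size allow no statement about a role. Of the abscisic acid group (UGT71B6, UGT71B8 and UGT71C5) only UGT71C5 was tested. The auxin group had UGT74D1 tested, with UGT84B1 and UGT84B2 below the filter, and the cytokinin group UGT76C1 tested, with UGT76C2 below it. Of 6 salicylic acid and defence members only UGT76D1 was tested, and it differed by no more than 0.43 in size in the 4 comparisons of dose and lines. UGT74F1, a salicylic acid glucosyltransferase, did not exceed 4.11, while UGT76B1, which acts on salicylic acid and N-hydroxypipecolic acid, read 22.8 then 7.74 in the high soil pH ecotype and 34.4 then 5.45 in the low soil pH ecotype. Its lab arrays were 15.3 then 20.7 in the calcicole and 35.9 then 35.8 in the calcifuge.

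Many members lie next to each other on a chromosome. In the gene order of TAIR10.1, 16 runs of 2 to 6 members were found with at most 5 genes between one member and the next. UGT84A1, UGT84A3 and UGT84A4 are adjacent on chromosome 4. UGT84A4, also a hydroxycinnamate glucosyltransferase, ranged only from 38.7 to 62.8 over the 8 arrays and differed by 0.07 ± 0.26 between the lab lines, where UGT84A3 differed by 2.11, and UGT84A1 never exceeded 3.48. On chromosome 1, UGT85A7, UGT85A2, UGT85A5 and UGT85A3 form a run in which the lab calcifuge was highest for UGT85A2, the lab calcicole at 12.5 mM for UGT85A5 and the high soil pH ecotype at 1 mM for UGT85A7 and UGT85A3.

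On chromosome 3, CYP71B16, CYP71B21, CYP71B22, CYP71B23 and CYP71B24 form a run of 5. CYP71B23 and CYP71B24, with 1 gene between them, were both highest in the lab calcicole. In the high soil pH ecotype, however, CYP71B23 was close to the low soil pH ecotype (wild difference -0.04 ± 0.36), whereas CYP71B24 was the lowest of all. A second run on chromosome 3 holds CYP71B25, CYP71B26, CYP71B34, CYP71B35, CYP71B36 and CYP71B37. Its tested members CYP71B26, CYP71B34 and CYP71B35 had CaCl2 differences of 0.91, 0.33 and 0.46, none past the threshold, and CYP71B35 went the other way in the lab calcifuge (34.6 to 27.4). None of the members' probe sets is of the types marked as shared with other transcripts, but related copies may still contribute to a signal.

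**Figure D5:**
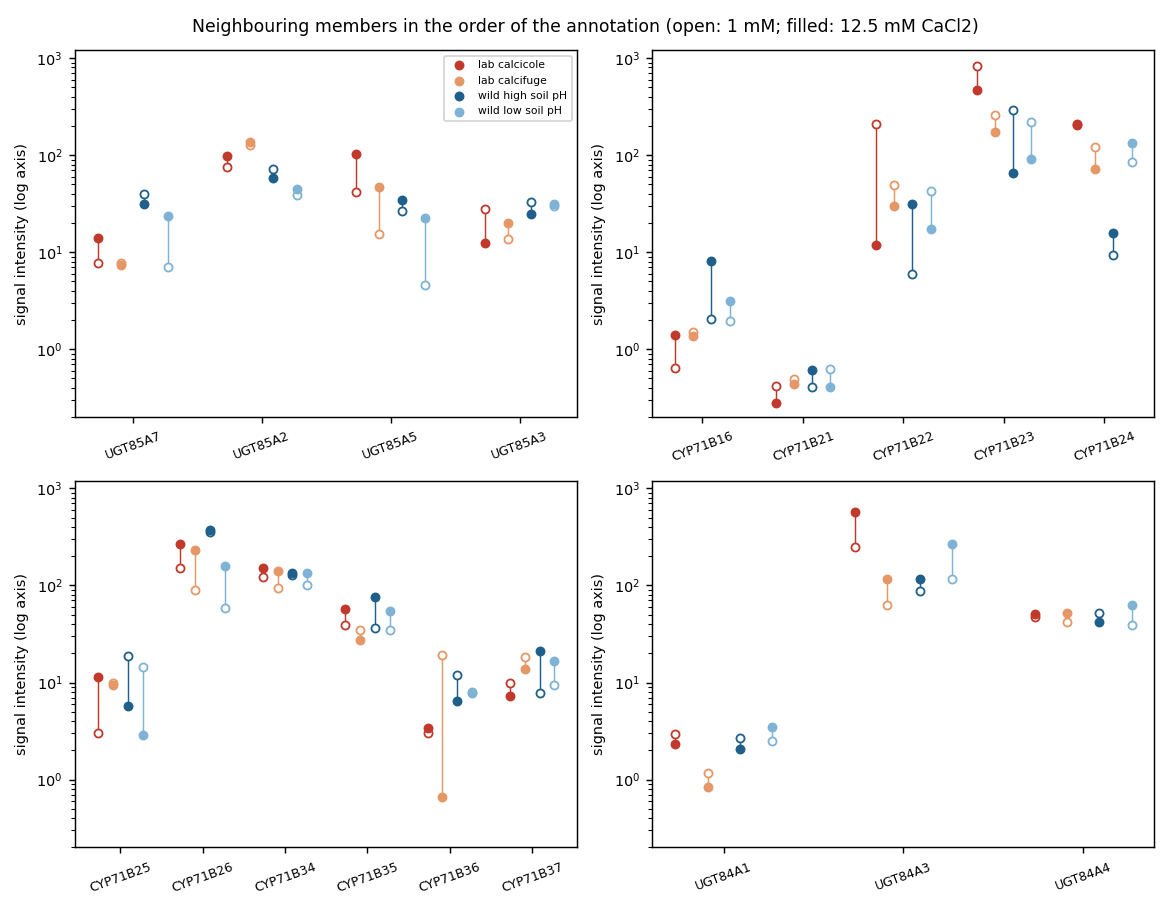
Signal intensity (log axis) of members in 4 chromosomal runs, in the gene order of the annotation (x axis). Colours are the 4 lines, open points 1 mM and filled points 12.5 mM CaCl2. In the bottom right panel UGT84A3 spreads from 63.2 to 569 while UGT84A4 stays between 38.7 and 62.8 and UGT84A1 is dim, and in the top right panel CYP71B24 is low in the high soil pH ecotype only.

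Few partner genes of these pathways were named in the platform annotation, which leaves many probe sets unnamed. Of 6 UGT genes listed under other names, 3 were named and tested and none passed in the dose or line comparisons. Between doses UF3GT differed by 1.94 ± 0.23 (adjusted p 0.0724), A5GT by 1.48 ± 0.23 (adjusted p 0.0742) and GT72B1 by 0.45 ± 0.24 (adjusted p 0.493). For UF3GT and A5GT all 4 arrays at 12.5 mM lay above all 4 at 1 mM, as for 1.34% of all probe sets. Their differences were larger, and their adjusted p smaller, than those of any tested member. The glucosinolate partners had 3 of 21 named and 2 tested, with GSTU20 lower in the lab lines by -0.92 (adjusted p 0.0261) and BCAT4 at -0.71 (adjusted p 0.0974). The phenylpropanoid partners had 2 of 14 named and tested, HCT and ALDH2C4, and neither passed. OPCL1 for jasmonate and GSTU25 for detoxification were the single tested genes of their lists and did not pass. No brassinosteroid or sterol partner, flower marker or senescence marker of the lists was named.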

How the data were processed

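RNA of whole plants from 8 samples was measured on ATH1 arrays, 1 per line and dose. The authors summarised each probe set as 1 intensity with MAS5, per the submitters' processing notes, with version and settings not given in the sources used here. On each array the deposited intensities had a trimmed mean of 100.0, taken without 2% of the values at either end, so they were scaled already. Detection calls were not used.

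The 64 controls among 22810 probe sets were left out. The pseudocount 2.51, the 10th percentile of the values, was added before log2, and the dimmest 40% by mean log2 value were set aside, leaving 13647. Models were fitted in R 4.3.3 using limma 3.58.1, with Benjamini-Hochberg adjustment over all of these and a threshold of 0.05. For CaCl2 and for the lines, the model had additive terms for line and dose, leaving 3 residual degrees of freedom; the lines are the replicates of the dose and the spread is the departure from additivity. Differences in the CaCl2 response were interactions with 2 residual degrees of freedom. Nothing says that arrays came from separate cultures, so p-values measure only the spread between these arrays.

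On simulated data with normal noise, the mean estimate of the fit was checked against a known change. This does not give the error rate of the calls on the real arrays. Gene names came from the platform annotation, which names 1 gene for 13513 probe sets, several for 503 and none for 8730, with names and gene order from TAIR10.1. Named members are those past the threshold and then up to 8 UGT and 8 CYP members per comparison with the largest difference of the same sign in all 4 lines or at both doses, and for interactions the 3 of each family with the smallest p. Members and lists were chosen with earlier results of these data known. Alternatives covered scaling, pseudocount, filter, variance model, shared probe sets, threshold, the line term and leaving out lines or arrays. Figures used matplotlib 3.10.9.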

Additional observations from a re-analysis of the deposited data

Results flagged for a closer look

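For UGT84A3 and CYP71B24 the difference between lines of the lab pair differed from that of the wild pair, and the difference itself passed the test. Within the pairs, only the lab difference of UGT84A3 and the wild difference of CYP71B24 passed. The CYP71B24 lab difference was 1.11 ± 0.35 (adjusted p 0.116). For UGT84A3 the lab difference minus the wild difference was 2.90 (adjusted p 0.0199, 0.0102 to 0.104 over 17 alternatives), with the calcicole-class line higher in the lab pair and lower in the wild pair at both doses. It was lost without the filter and without 7 of the 8 arrays in turn, the exception being the high soil pH ecotype array at 1 mM (adjusted p 0.0452). For CYP71B24 it was 4.02 (adjusted p 0.0199, 0.00910 to 0.104 over 17 alternatives), lost without the filter, without either lab calcicole array and without any 1 of the 4 wild arrays. Both values kept their direction in all of these, 2.56 to 3.24 for UGT84A3 and 3.13 to 4.61 for CYP71B24. These alternatives were chosen after the calls were seen. The part of any technical difference between the arrays was not tested. No array stood apart from the other 3 of its dose by Dixon's criterion in 50 sets of 4 arrays examined. Each set held 1 array of each line, so the criterion cannot tell a faulty array from a line that differs. Nothing about the quality of the arrays is concluded from it.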

How the results depend on the processing

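The counts for CaCl2 and for differences in its response were 0 under every alternative run. Between the lab lines, UGT members past the threshold went from 1 to 0 without the filter, 2 with an intensity trend and robust estimation and 3 at an adjusted p under 0.1, with 0 to 2 when 1 array was left out. CYP members there went from 1 to 2 with median centring, quantile normalization, a pseudocount of 16 or the intensity trend, to 3 at 0.1, to 0 without the filter or with a mean signal of 20 or more, and lay between 0 and 1 with 1 array left out. Between the wild lines, the CYP count of 1 became 0 without the filter and 2 at 0.1, with 0 to 1 when an array was left out. Between lab and wild lines, the UGT count of 5 became 1 without the filter and 0 to 5 with an array left out, and the CYP count of 2 became 1 without the filter, 4 at 0.1 and 1 to 2 with an array left out. Dropping the filter tested 22746 probe sets and left 129, 12 and 460 calls in the lab, wild and lab against wild comparisons in place of 618, 45 and 2169. Values of 3 members changed sign, none past the threshold: without the high soil pH ecotype array at 12.5 mM the wild difference was 0.26 for UGT72E1 (-0.89 to 0.26 with 1 array left out) and -0.11 for CYP71B35 (-0.11 to 0.62), and without the lab calcicole array at 12.5 mM the lab against wild difference of CYP71B5 was 0.0054 (-0.44 to 0.0054). The cause was not tested. Of the values of named members under alternatives, 910 kept direction and side of the threshold, 70 lost it, 19 gained it and 3 changed sign. The 910 are no measure of stability. A change of filter, variance model or threshold leaves an estimate as it is by construction, and most named values were not past the threshold to begin with. By replicate number, no paired analysis was possible because all samples carry the same one. The CaCl2 comparison is paired by line instead, through the line term of the model, and without that term the count of members past the threshold was 0 as well, with an adjusted p of 0.999 for each of the 7 named members. Signals near the pseudocount, as for the dimmest members below the filter, limit what can be said of their changes.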

Other observations

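Probe sets that name several genes were no members but cover further copies of the families. The probe set of UGT73B2 and UGT73B3 read 548 then 470.1 in the lab calcicole, 88.9 then 124 in the lab calcifuge, 108 then 56.9 in the high soil pH ecotype and 49.4 then 74.7 in the low soil pH ecotype. It was higher in the lab calcicole than in the calcifuge by 2.25 ± 0.36 (adjusted p 0.0199) and in lab than in wild lines by 1.71 ± 0.26 (adjusted p 0.00991). The probe set of CYP71B19 and CYP71B20 read 588 then 471 in the lab calcicole, 383 then 362 in the lab calcifuge, 304 then 149 in the high soil pH ecotype and 231 then 207 in the low soil pH ecotype, and was higher in the lab lines by 1.03 ± 0.19 (adjusted p 0.0169). That of UGT71D1 and AT2G29710 was higher in the lab lines by 0.56 (adjusted p 0.0367). That of UGT89B1 and AT1G73885 passed in none of the dose or line comparisons.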
